A study of Mus musculus with 36 samples.

Results

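The 8 genes described here encode transcription factors of the muscle lineage: the myogenic regulatory factors *Myod1*, *Myf5*, *Myf6* and *Myog*, the MEF2 factors *Mef2a*, *Mef2c* and *Mef2d*, and the sine oculis-related homeobox factor *Six4*. They were picked by gene name from the 55416 genes of the count table, and all 8 passed the filter on low values that left 13995 genes for testing (a minimum of 1 RPM, reads per M counts of the library, reached by 12 or more of 36 libraries). The libraries are from C2C12 cells, a mouse myoblast line that fuses into multinucleate myotubes in medium with horse serum. All myotubes were transfected with an antisense locked nucleic acid (LNA) on the day before the experiment, either a negative control LNA (control) or an LNA against the long non-coding RNA *Tug1* (*Tug1* KD), so that the controls were transfected cells too. On day 4 of differentiation they were harvested without stimulation, with electrodes in the medium (Rest), or after 3 h of electrical pulse stimulation (EPS), a model of contraction, with RNA taken at once (EPS 0h) or once a further 3 h had passed (EPS 3h). Each of the 6 groups had 6 libraries, from 1 cell line and from wells. The main fit had no term for the experiment a well came from. Its p-values therefore measure the spread between wells of these cultures together with any difference between experiments.

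Myogenic regulatory factors are basic helix-loop-helix proteins that pair with E proteins and bind E-boxes in the control regions of muscle genes. MyoD and Myf5 commit cells to the muscle lineage, myogenin drives differentiation, and Myf6, also called MRF4, is the family member of differentiated fibres. MEF2 proteins bind A/T-rich sites beside E-boxes and act with the myogenic factors, class IIa histone deacetylases hold them back, and Six4 with EYA cofactors acts upstream of myogenic factor genes.

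Promoter sequences are shown because E-boxes and MEF2 sites are the sequences that these same proteins recognise. RefSeq promoters of the GRCm38.p6 build, 250 bases before to 50 bases after a gene's start, were held for 6 of the 8 genes, and not for *Myod1* or *Myf6*. They were searched for the E-box CANNTG, which reads the same on both strands, and for the MEF2 consensus on both strands. This consensus was YTAWWWWTAR, where Y is C or T, W is A or T and R is A or G. Only exact matches were counted. The stretch ctatatttat in the *Myog* promoter differs from the consensus at its last base and was not counted. An E-box was in 72.3% of 32851 promoters in the table and a MEF2 consensus in 3.19%, so an E-box match is common. The sequences below are those of *Myog*, with 2 E-boxes 138 and 12 bases before the start, of *Mef2a*, with a MEF2 match that begins 2 bases before the start, and of the *Mef2c* promoter with 2 E-boxes, 234 and 100 bases before the start. Capitals mark the matches, which do not overlap.
*Myog*, chr1:134289754-134290053, plus strand: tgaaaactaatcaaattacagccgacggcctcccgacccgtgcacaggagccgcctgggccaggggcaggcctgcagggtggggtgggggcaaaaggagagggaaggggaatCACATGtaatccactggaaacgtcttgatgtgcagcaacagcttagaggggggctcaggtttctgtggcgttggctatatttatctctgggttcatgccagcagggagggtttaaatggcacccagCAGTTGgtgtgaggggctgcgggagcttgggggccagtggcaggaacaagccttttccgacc
*Mef2a*, chr7:67372809-67373108, minus strand: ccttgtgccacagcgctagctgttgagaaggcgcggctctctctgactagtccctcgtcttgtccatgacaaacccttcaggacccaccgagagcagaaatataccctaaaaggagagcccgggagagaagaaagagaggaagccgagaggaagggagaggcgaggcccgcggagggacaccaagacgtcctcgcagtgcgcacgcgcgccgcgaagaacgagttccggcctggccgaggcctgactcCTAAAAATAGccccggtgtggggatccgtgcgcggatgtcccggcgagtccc
*Mef2c*, chr13:83503784-83504083, plus strand: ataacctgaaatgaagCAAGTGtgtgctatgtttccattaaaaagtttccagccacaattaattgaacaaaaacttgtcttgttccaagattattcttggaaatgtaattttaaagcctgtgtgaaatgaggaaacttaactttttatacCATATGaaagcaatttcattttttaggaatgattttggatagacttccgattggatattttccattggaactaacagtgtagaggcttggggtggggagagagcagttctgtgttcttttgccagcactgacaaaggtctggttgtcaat
Of the other promoters in the table, another of *Mef2c* held 1 E-box, CAGATG, 245 bases before the start. The third *Mef2c* promoter, both of *Six4* and those of *Mef2d* and *Myf5* held neither motif, which says only that these letters are not in these windows.

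In the GENCODE annotation of GRCm39, *Myf5* (chr10:107318769-107321995) and *Myf6* (chr10:107328712-107330656) lie side by side on the minus strand, 6716 bases apart. *Myog* lies at chr1:134217707-134220287 and *Myod1* at chr7:46025870-46028526, both on the plus strand. The MEF2 genes are longer, with *Mef2a* at chr7:66880911-67022606 (minus strand), *Mef2c* at chr13:83652064-83815555 (plus strand) and *Mef2d* at chr3:88049185-88079398 (plus strand), and *Six4* lies at chr12:73146383-73160230 (minus strand). Exons of *Lysmd4* overlap those of *Mef2a* on the opposite strand, at a mean of 10.6 RPM over the 36 libraries, and the strand setting of the counting is not given in the sources used here.

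Each library held between 17005079 and 24181167 counts. Replicates 1 to 3 and replicates 4 to 6 formed 2 sets: after centring within groups, libraries of different groups correlated at a median of 0.344 across genes within a set (270 pairs) and at -0.349 between sets (270 pairs). Centring makes the pairs of any 2 groups balance around 0. The negative value therefore follows from the positive one and is not a separate observation. Wells came from 2 independent experiments per the study's methods, and which replicate numbers belong to which is not stated. The EPS 3h libraries of replicate 3 stood apart from replicates 1 and 2, with a root mean square difference in log2(RPM + 1) of 0.507 and 0.534 in control and 0.4 and 0.468 in *Tug1* KD, against 0.274 and 0.278 between replicates 1 and 2. *Tug1* itself was 48.3 ± 6.77 RPM (SD, n = 6) in control and 27.2 ± 3.68 in *Tug1* KD at Rest, with no overlap, a log2 fold change (log2FC) of -0.83 (FDR 0.000915). The log2FC was -0.57 (FDR 0.0178) at EPS 0h and -0.51 (FDR 0.0414) at EPS 3h, and *Tug1* rose with EPS in both LNA groups. Exons of *Morc2a* (94.1 RPM) overlap it on the opposite strand. Myotube markers were above 1 RPM on average in all 6 groups (10 of 10), with a summed level of 13571.8 to 20645.4 RPM per library, against 117 to 190 RPM for 7 markers of cycling myoblasts. Of the 10 myotube markers, 1 was called higher in *Tug1* KD in each state, where 10.0%, 14.3% and 11.5% of all genes were called. It was *Cav3* at Rest (log2FC 0.52, FDR 0.0231) and *Ryr1* at EPS 0h and EPS 3h (0.89, FDR 0.00166, and 0.79, FDR 0.00647). FDR here is the Benjamini-Hochberg adjusted p of edgeR's two-sided quasi-likelihood test over all 13995 genes, and a gene was called at an FDR under 0.05.

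Per kilobase of exon, *Myog* was by far the most abundant of the 8 in Rest control myotubes, and *Myf6* the least. The level of *Myog* was 612 ± 80 RPM per kb, followed by *Myod1* at 44.1 ± 1.79, *Mef2d* at 24.3 ± 1.74 and *Mef2a* at 13.9 ± 2.48. *Myf5* (6.46 ± 0.876), *Six4* (6.26 ± 0.482) and *Mef2c* (5.52 ± 1.36) came next and lay within their SD of each other, and *Myf6* was at 1.5 ± 0.383. The lengths are all annotated exons joined, 15500 bases for *Mef2a* and 17132 for *Mef2c*, so genes with many isoforms are understated on this scale. In *Tug1* KD myotubes at Rest, *Mef2c* stood at 11.6 ± 1.9 RPM per kb, above *Myf5* (4.56 ± 0.455) and *Six4* (5.58 ± 1.17).

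**Figure D1:**
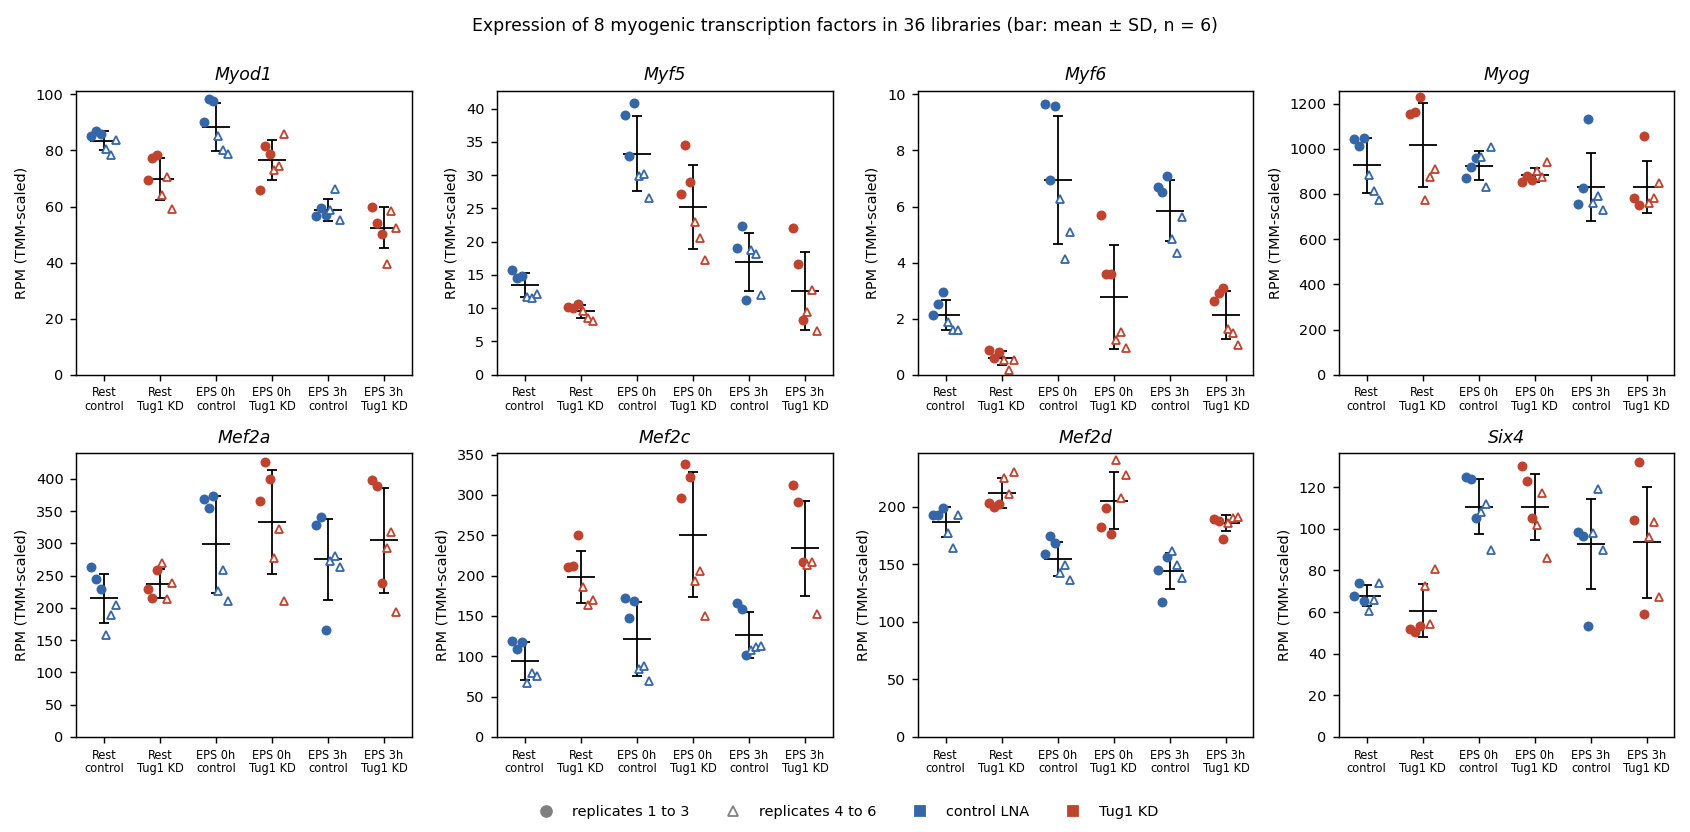
TMM-scaled RPM (linear axes from 0) of the 8 genes in each of the 36 libraries by group, with blue for control and red for *Tug1* KD, circles for replicates 1 to 3, triangles for replicates 4 to 6, and bars for the mean ± SD (n = 6). *Myf6* was lower and *Mef2c* higher in the *Tug1* KD groups, *Myf5* was highest at EPS 0h (33.2 and 25.3 RPM on average), and 1 circle stood apart for *Myog* in both EPS 3h groups.

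*Myf6* was lower and *Mef2c* higher in *Tug1* KD than in control myotubes. These libraries had 1 LNA sequence against *Tug1*, and effects of this LNA other than loss of *Tug1* were not tested. *Myf6* was 2.53 to 3.62 times lower than control in all 3 states, whereas *Mef2c* was 1.85- to 2.1-fold higher. *Mef2d* was higher in *Tug1* KD than in control by a smaller amount at EPS 0h and EPS 3h, and *Myod1* was slightly lower at Rest. At Rest 1 of 8 genes was called higher and 2 lower, beside 10.0% of all genes tested called in either direction. At EPS 0h and at EPS 3h, 2 were called higher and 1 lower, beside 14.3% and 11.5% of all genes.

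*Myf6* had 34 to 59 counts per control library at Rest and 4 to 17 per KD library. The control libraries lay at 1.6 to 2.96 RPM (median 2.01) and the KD libraries at 0.18 to 0.876 RPM (median 0.572), so the groups did not overlap and all 6 KD libraries were under 1 RPM. The log2FC was -1.86 (95% confidence interval -2.62 to -1.1, FDR 0.000723), or 3.62 times lower. At EPS 0h, control libraries were at 4.13 to 9.64 RPM (median 6.6) and KD libraries at 0.971 to 5.69 RPM (median 2.56), with a log2FC of -1.34 (FDR 0.00247). The groups overlapped there, and the log2FC was -1.0 within replicates 1 to 3 and -2.05 within replicates 4 to 6. At EPS 3h the levels were 4.35 to 7.09 RPM (median 6.07) and 1.06 to 3.1 RPM (median 2.12), again without overlap (log2FC -1.45, FDR 0.00187).

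*Mef2c*, a MEF2 gene active in skeletal and heart muscle, changed the other way. At Rest it ranged from 67.1 to 119 RPM (median 94.2) in control and from 163 to 250 RPM (median 199) in *Tug1* KD libraries, which did not overlap, and the log2FC was 1.07 (95% confidence interval 0.63 to 1.52, FDR 0.000796). At EPS 0h it was 69.4 to 172 RPM (median 117) against 150 to 338 RPM (median 251), a log2FC of 1.05 (FDR 0.000748). These groups overlapped, and the sets differed in level: control means were 162 RPM in replicates 1 to 3 and 80.3 RPM in replicates 4 to 6, and KD means 319 and 183 RPM. Within the sets the log2FC was 0.99 and 1.19. At EPS 3h the values were 102 to 166 RPM (median 112) and 152 to 312 RPM (median 217), with a log2FC of 0.89 (FDR 0.00513).

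*Mef2d*, a MEF2 family member expressed in many tissues, ranged from 136 to 174 RPM (median 154) in control and from 176 to 240 RPM (median 203) in KD libraries at EPS 0h. At EPS 3h the ranges were 117 to 161 RPM (median 147) and 172 to 191 RPM (median 188). The groups did not overlap at either time, with log2FC of 0.41 (FDR 0.000377) and 0.36 (FDR 0.00197). The difference between LNA groups at EPS 0h was uneven between the sets, at 0.17 in replicates 1 to 3 (FDR 0.381) and 0.66 in replicates 4 to 6 (FDR 3.66e-05). Without the filter on low counts the FDR at EPS 3h was 0.0557. At Rest, control libraries (164 to 199 RPM) all lay just below KD libraries (200 to 230 RPM), but the log2FC of 0.18 was not called (FDR 0.163). *Mef2a* was not called in any of the 3 states, with log2FC of 0.15, 0.16 and 0.15 and, at Rest, a 95% confidence interval of -0.22 to 0.51.

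Among the other myogenic factors, *Myod1* at Rest was 78.2 to 87.1 RPM (median 84.4) in control and 59 to 78.4 RPM (median 70) in KD libraries. All 6 KD libraries lay below the control mean and the log2FC of -0.26 was called with an FDR of 0.0489, but not without the filter on low counts (-0.22, FDR 0.409) nor in either set alone. *Myf5* was 11.6 to 15.8 RPM (median 13.4) and 8.11 to 10.6 RPM (median 9.79) at Rest, without overlap, and its log2FC of -0.5 was not called (FDR 0.13). At EPS 0h and EPS 3h its log2FC was -0.4 (FDR 0.193) and -0.42 (FDR 0.203). At these 2 times, 5 and 4 of 6 libraries correlated best with the library of their own replicate number. With a replicate block *Myf5* was called at both, at -0.42 (FDR 0.0346) and -0.46 (FDR 0.0298). With a block for the set alone (replicates 1 to 3 or 4 to 6) it was called at neither, at -0.41 (FDR 0.0614) and -0.45 (FDR 0.0532). At Rest *Myf5* was called with this set block, at -0.49 (FDR 0.0401). *Myog* was not called in any state, with a log2FC of 0.13 at Rest (95% confidence interval -0.09 to 0.36), nor was *Six4*, at -0.16 (-0.49 to 0.16).

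**Figure D2:**
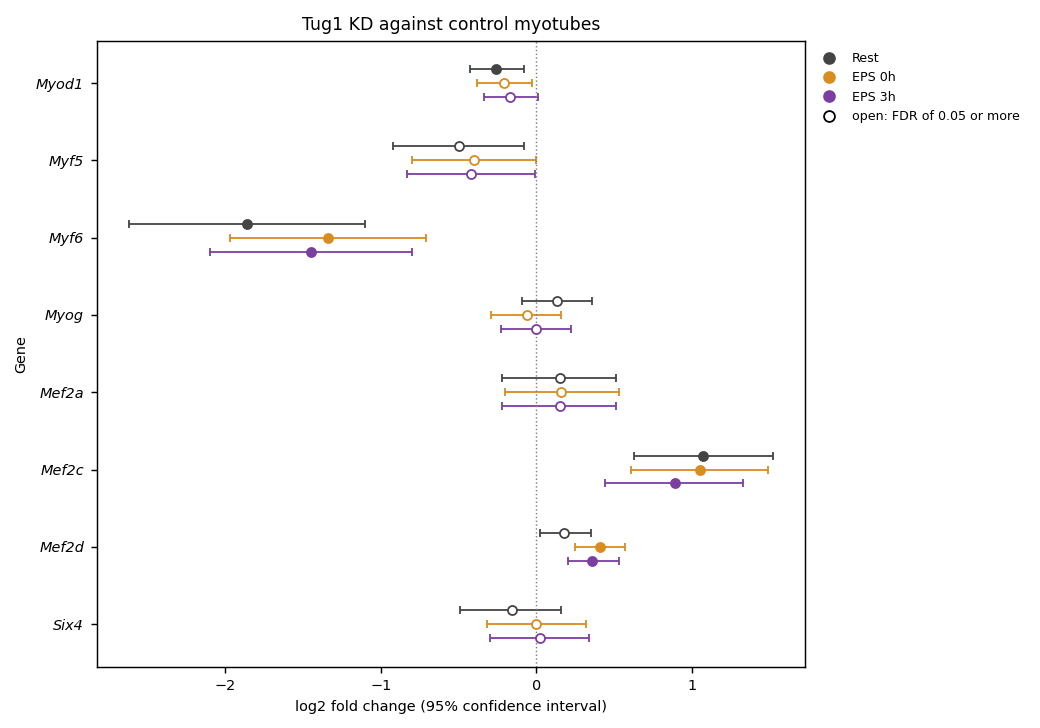
log2FC of *Tug1* KD against control for the 8 genes at Rest, EPS 0h and EPS 3h, with 95% confidence intervals and filled points for an FDR under 0.05. *Myf6* lies between -1.86 and -1.34 and *Mef2c* between 0.89 and 1.07, and the intervals of *Myog* and *Six4* span 0 in each state.

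More of the factors differed between EPS and Rest than between LNA groups, and so did more of the transcriptome. In control myotubes at EPS 0h, 4 genes were called higher (*Myf5*, *Myf6*, *Mef2a*, *Six4*) and 1 lower (*Mef2d*), beside 38.9% of all genes called. At EPS 3h, 2 were higher (*Myf6*, *Six4*) and 2 lower (*Myod1*, *Mef2d*), beside 52.0%. In *Tug1* KD myotubes, 4 were higher at EPS 0h, beside 45.6%, and 2 were higher and 3 lower at EPS 3h, beside 52.1%. The EPS 0h and EPS 3h comparisons share their Rest libraries. No group was kept unstimulated until the time of EPS 3h. EPS 3h therefore differs from Rest and from EPS 0h also by the further time in culture, whose part was not tested. From EPS 0h to EPS 3h, *Myod1* and *Myf5* were called lower in both LNA groups, beside 16.6% of all genes in control and 15.7% in *Tug1* KD.

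*Myf5* rose and came back. Control libraries at EPS 0h were at 26.5 to 40.9 RPM (median 31.5), all above the Rest libraries (11.6 to 15.8 RPM), a log2FC of 1.31 (FDR 3.54e-06), or 2.47-fold. In *Tug1* KD the EPS 0h libraries were at 17.2 to 34.6 RPM (median 25.1), above all Rest libraries (8.11 to 10.6 RPM), a log2FC of 1.41 (FDR 9.49e-07). From EPS 0h to EPS 3h it fell by 0.97 (FDR 0.000588) in control and by 0.99 (FDR 0.000497) in *Tug1* KD on the log2 scale. At EPS 3h the control libraries spread from 11.3 to 22.3 RPM and overlapped Rest, with a log2FC of 0.33 that was not called (FDR 0.167). In *Tug1* KD the EPS 3h difference of 0.42 (FDR 0.0906) was called without the replicate 3 libraries of EPS 3h (0.49, FDR 0.0423).

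*Myf6* rose at EPS 0h and was still high at EPS 3h. Control libraries ranged from 1.6 to 2.96 RPM at Rest, and both EPS groups given above, with lowest values of 4.13 and 4.35 RPM, lay entirely higher. The log2FC against Rest was 1.71 (FDR 5.05e-05) and 1.46 (FDR 0.000205). In *Tug1* KD it was 2.23 (FDR 8.53e-06) and 1.87 (FDR 8.88e-05), also without overlap, from a Rest level of 0.587 ± 0.247 RPM (n = 6). The mean in *Tug1* KD was 2.77 ± 1.85 RPM at EPS 0h and 2.13 ± 0.851 RPM at EPS 3h, beside 2.12 ± 0.541 RPM in control myotubes at Rest.

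*Six4* was 60.7 to 74 RPM (median 66.7) at Rest and 89.9 to 125 RPM (median 110) at EPS 0h in control, without overlap (log2FC 0.7, FDR 0.000558). In *Tug1* KD it was 50.5 to 80.7 RPM (median 53.9) and 85.9 to 130 RPM (median 111), with a log2FC of 0.87 (FDR 3.50e-05). At EPS 3h the log2FC was 0.44 in control (FDR 0.0184) and 0.63 in *Tug1* KD (FDR 0.00116). The lowest control library at EPS 3h, at 53.2 RPM, was replicate 3, and without replicate 3 the log2FC was 0.55 (FDR 0.000668). When counts were scaled by library size only, which lowered the median log2FC of all genes by 0.169, the control difference at EPS 3h was 0.28 (FDR 0.142).

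*Mef2a*, a broadly expressed MEF2 gene, was 158 to 263 RPM (median 217) at Rest and 210 to 373 RPM (median 307) at EPS 0h in control. The groups overlapped and the log2FC of 0.47 (FDR 0.035) was not called with library size scaling (FDR 0.0855) or without the filter (FDR 0.0698). The *Tug1* KD value was 0.49 (FDR 0.026), which was likewise lost, at 0.0679 and 0.0796. At EPS 3h the control log2FC was 0.36 (FDR 0.0948), and it was called with a replicate block (0.36, FDR 0.0322) and without the replicate 3 libraries (0.46, FDR 0.0244). *Mef2c* behaved likewise in control, with log2FC of 0.36 (FDR 0.192) at EPS 0h and 0.42 (FDR 0.103) at EPS 3h that were called with a replicate block (0.32, FDR 0.0271, and 0.45, FDR 0.00185). In *Tug1* KD at EPS 0h its value was 0.34 (FDR 0.204), and 0.29 (FDR 0.0403) with the block.

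*Myod1*, *Mef2d* and *Myog* were the members called lower after EPS. *Myod1* was not called at EPS 0h in control (log2FC 0.08, FDR 0.463) but fell by EPS 3h to 55.2 to 66.1 RPM (median 58), below all Rest libraries (78.2 to 87.1 RPM), a log2FC of -0.5 (FDR 7.34e-06). In *Tug1* KD it was 39.4 to 59.7 RPM (median 53.3) at EPS 3h against 59 to 78.4 RPM at Rest, a log2FC of -0.41 (FDR 0.000123). *Mef2d* in control fell by 0.27 (FDR 0.00698) at EPS 0h and by 0.37 (FDR 0.000225) at EPS 3h on the log2 scale, and at EPS 3h no library reached the Rest range. In *Tug1* KD the log2FC was -0.05 (FDR 0.663) and -0.19 (FDR 0.0474), the latter not called by DESeq2 (FDR 0.0601).

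*Myog* was called in *Tug1* KD at EPS 3h, with 774 to 1227.4 RPM (median 1031.3) at Rest and 749 to 1055.0 RPM (median 783) at EPS 3h (log2FC -0.29, FDR 0.0266). It differed by -0.1 (FDR 0.455) in replicates 4 to 6 alone. In control the EPS 3h log2FC was -0.16 (FDR 0.244), and -0.27 (FDR 0.0199) without the replicate 3 libraries, in which *Myog* was the highest of its group at 1132.6 RPM. With library size scaling, which lowered the median of all genes, *Myog* was also called at EPS 3h in control (-0.33, FDR 0.0099) and at EPS 0h in *Tug1* KD (-0.29, FDR 0.0276).

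**Figure D3:**
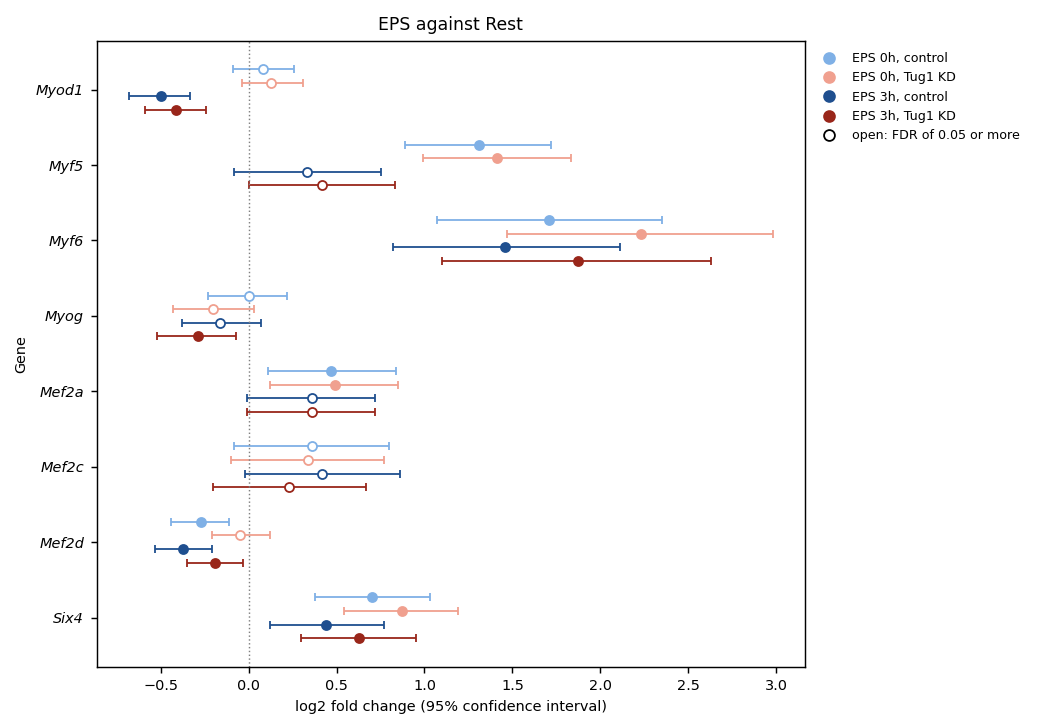
log2FC of EPS 0h (light) and EPS 3h (dark) against Rest for the 8 genes in control (blue) and *Tug1* KD (red) myotubes, with 95% confidence intervals and filled points for an FDR under 0.05. *Myf5* lies at 1.31 and 1.41 at EPS 0h and at 0.33 and 0.42 at EPS 3h, and *Myod1* is below 0 at EPS 3h in both LNA groups.

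Whether the response to EPS differed between LNA groups was tested with an interaction term. No gene of the 8 was called at EPS 0h or EPS 3h by edgeR, and 0 of 8 had an unadjusted p under 0.05 at either time; DESeq2 and limma-voom also called 0 of 8, with 1 unadjusted p under 0.05 by DESeq2 at EPS 0h. Of all genes, edgeR called 0% at EPS 0h (324 at an unadjusted p under 0.05, with 0 called by DESeq2 and limma-voom too) and 0.00715% at EPS 3h, which is 1 gene. The largest difference of log2FC among the 8 was that of *Myf6* at EPS 0h, with a wide interval, 0.52 (-0.46 to 1.5, FDR 1). For *Mef2d* it was 0.23 at EPS 0h (-0.0 to 0.46, unadjusted p 0.054 by edgeR, FDR 1), and for *Mef2c* it was -0.02 (-0.64 to 0.6).

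Of 15 tested dimer partners and inhibitors of the myogenic factors, 6 were called higher and 5 lower at EPS 0h in control, and 4 higher and 8 lower at EPS 3h. Calls went in both directions, where 38.9% and 52.0% of all genes were called. The median log2FC of the list was -0.22 and -0.4, beside -0.03 and -0.02 over all genes. The ID proteins lack a DNA-binding region and keep E proteins from the myogenic factors. *Id1* fell from 49.6 to 69.7 RPM (median 63.6) at Rest to 6.74 to 17 RPM (median 10.7) at EPS 3h in control, a log2FC of -2.46 (FDR 7.96e-13), and *Id3* by 2.04 (FDR 3.03e-11) and *Id2* by 1.32 (FDR 1.76e-10) on the log2 scale. *Twist2*, a repressor of MyoD and MEF2 activity, rose from 1.73 ± 0.403 to 5.23 ± 1.23 RPM at EPS 0h (log2FC 1.59, FDR 1.27e-06), and *Snai2*, which competes for E-boxes, from 46.7 ± 9.05 to 106 ± 14.7 RPM (log2FC 1.18, FDR 1.36e-07).

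In *Tug1* KD at Rest, 1 gene of that list was called higher (*Zeb1*, log2FC 0.43, FDR 0.00552) and 2 lower, where 10.0% of all genes were called. *Id1* was 49.6 to 69.7 RPM in control and 34.5 to 44.1 RPM (median 36.7) in KD libraries, without overlap (log2FC -0.7, FDR 0.00832), and *Hey1*, a Notch target, had a log2FC of -0.49 (FDR 0.0223). The median log2FC of the list was -0.12, beside -0.03 over all genes tested.

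Of 13 tested partners and repressors of MEF2, 3 were called higher and 1 lower in *Tug1* KD at Rest. At EPS 0h and at EPS 3h, 6 were called higher and 1 lower. Of all genes, 10.0%, 14.3% and 11.5% were called in the 3 states. The median log2FC of the list was 0.03, 0.16 and 0.16 in the 3 states, and that of all genes between -0.03 and 0. The lower one in each state was *Mamstr*, which encodes a MEF2 coactivator. At Rest it ranged from 6.99 to 13 RPM (median 9.69) in control and from 2.21 to 5.03 RPM (median 3.38) in KD libraries, without overlap (log2FC -1.51, FDR 1.03e-06), and in control it also fell with EPS (log2FC -1.1 at EPS 0h, FDR 2.37e-05). *Hdac9*, a class IIa histone deacetylase that represses MEF2 and is itself a MEF2 target, was 22.3 ± 6.67 RPM in control and 44.5 ± 15.7 RPM in KD at EPS 0h (log2FC 1.0, FDR 0.00105). *Hdac4* of the same class was higher in KD by 0.49 (FDR 0.00139) at EPS 0h and by 0.58 (FDR 0.000313) at EPS 3h, and *Ncoa2*, a coactivator, by 0.58 (FDR 0.00144) and 0.52 (FDR 0.0053).

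*Eya1*, a cofactor of Six4, was 16.1 ± 2.74 RPM at Rest and 22.8 ± 2.15 RPM at EPS 0h in control, a log2FC of 0.5 (FDR 0.00383). The *Tug1* KD means were 18 ± 3.35 and 28.8 ± 1.81 RPM, without overlap (log2FC 0.68, FDR 0.00012). At EPS 3h in control the mean of *Eya1* was 20.1 ± 4.37 RPM. *Six5* and *Pax7* were called lower in control at EPS 3h than at Rest, where 52.0% of all genes were called. *Six5*, a relative of *Six4*, was 6.55 ± 0.896 RPM at Rest and 2.78 ± 0.865 RPM at EPS 3h (log2FC -1.23, FDR 1.41e-05), and *Pax7*, a marker of undifferentiated muscle cells, was 18.4 ± 1.24 and 11.9 ± 2.02 RPM (log2FC -0.62, FDR 0.000339).

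Of 31 tested textbook targets of the myogenic factors and MEF2, 3 were called higher and 1 lower in *Tug1* KD at Rest, and 2 higher and 1 lower at EPS 0h and at EPS 3h. These shares were near those of all genes, of which 10.0%, 14.3% and 11.5% were called in the 3 states. *Casq2*, the calcium store protein calsequestrin, was 721 ± 90.7 RPM in control and 1155.6 ± 169 RPM in KD at Rest, without overlap (log2FC 0.68, FDR 0.000506). *Musk*, the receptor kinase of the neuromuscular junction, was higher by 0.53 (FDR 0.00412) at Rest and 0.81 (FDR 1.98e-05) at EPS 0h, and *Cdkn1a*, a cell cycle inhibitor, by 0.29 (FDR 0.0382) at Rest. *Atp2a1*, the fast-fibre calcium pump, fell by 0.45 on the log2 scale (FDR 0.00276). The median log2FC of this list at Rest was 0.14, beside -0.03 over all genes. After EPS in control, 0 targets were called higher and 2 lower at EPS 0h, with 5 at an unadjusted p under 0.05 and 4 and 2 called by DESeq2 and limma-voom, where 38.9% of all genes were called. At EPS 3h in control 1 was higher (*Rb1*, log2FC 0.6, FDR 0.0279) and 3 were lower, where 52.0% of all genes were called. In *Tug1* KD 1 was higher and 5 were lower at EPS 0h (45.6% of all genes called), and 1 was higher and 4 were lower at EPS 3h (52.1%).

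**Figure D4:**
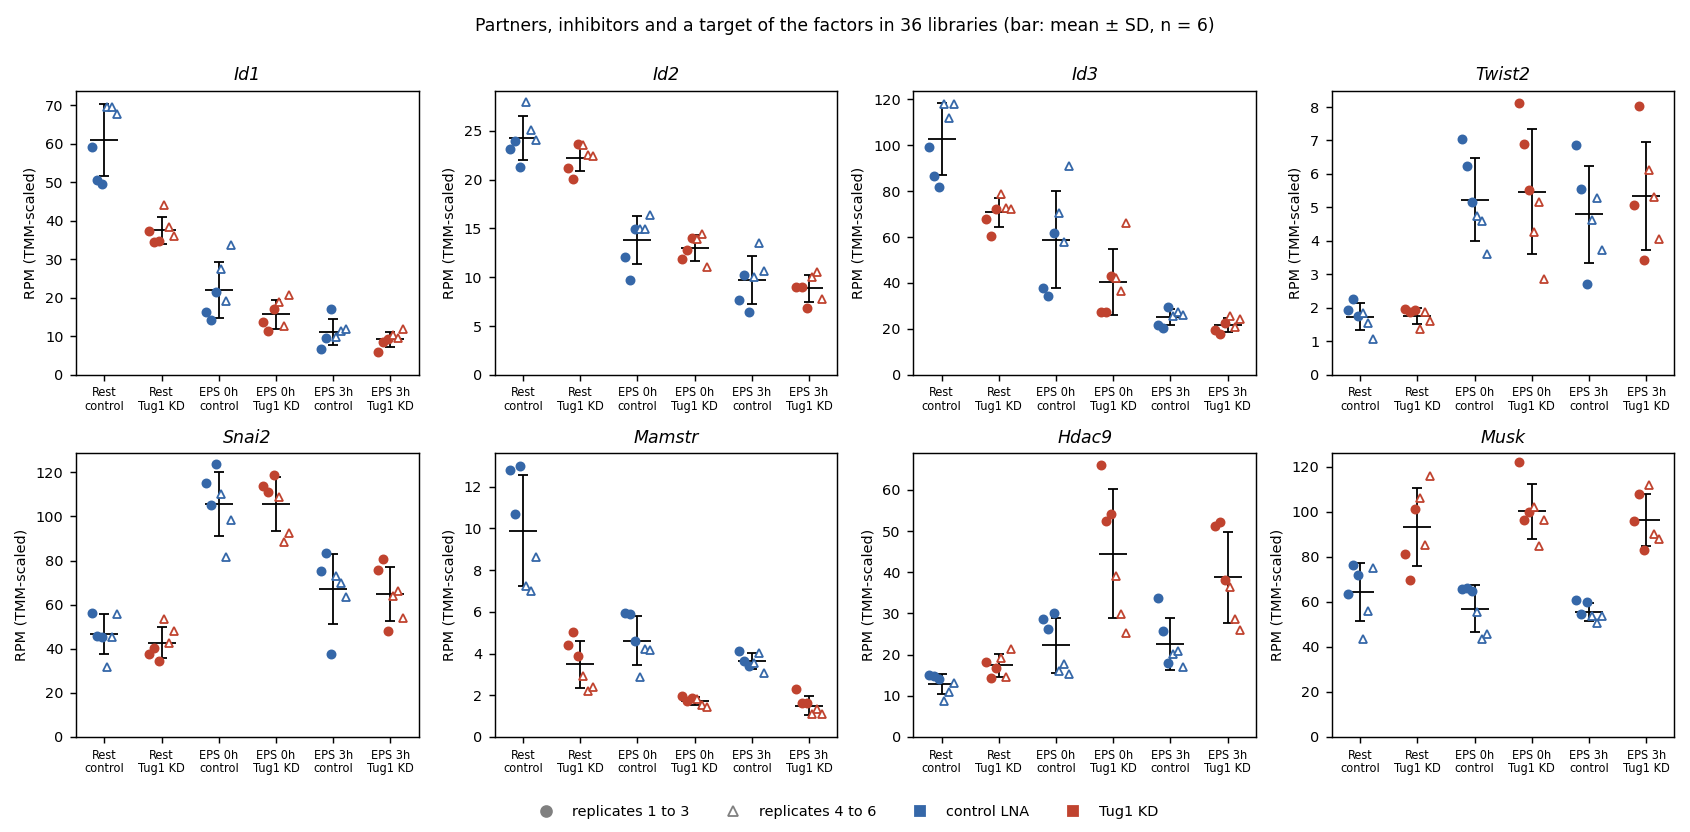
TMM-scaled RPM (linear axes from 0) of *Id1*, *Id2*, *Id3*, *Twist2*, *Snai2*, *Mamstr*, *Hdac9* and *Musk* in the 36 libraries by group, with blue for control, red for *Tug1* KD, circles for replicates 1 to 3, triangles for replicates 4 to 6, and bars for the mean ± SD (n = 6). The ID genes step down from Rest to EPS 3h, *Id1* from a control mean of 61.1 to 11.1 RPM, and *Mamstr* is lower in *Tug1* KD in each state.

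Of 6 markers of undifferentiated reserve cells 5 were tested and *Calcr* was under 1 RPM on average in every group; 3 were called higher at EPS 0h in control (*Hey1* by 0.63, FDR 0.000516, *Heyl* by 0.57, FDR 2.22e-07, and *Spry1* by 0.52, FDR 0.000113) and 4 lower from EPS 0h to EPS 3h, where 38.9% and 16.6% of all genes were called. *Pax7* was not called at EPS 0h in control, fell by 0.93 (FDR 6.65e-06) from EPS 0h to EPS 3h and was then below Rest, as given above. In control libraries the 6 markers summed to a median of 122 RPM at Rest, 157 RPM at EPS 0h and 118 RPM at EPS 3h, and their part in the *Myf5* values was not tested. In *Tug1* KD against control, *Hey1* was called lower at Rest and *Spry1* at EPS 0h (log2FC -0.32, FDR 0.0321). Of the 7 markers of cycling myoblasts, edgeR, DESeq2 and limma-voom called 0 in *Tug1* KD at Rest, with 4 at an unadjusted p under 0.05. At EPS 0h edgeR called 0, with 3 at an unadjusted p under 0.05 and 1 called by DESeq2 and by limma-voom, and at EPS 3h edgeR called *Ccnb1* lower (log2FC -0.39, FDR 0.0407). The median log2FC of this list was -0.25, -0.23 and -0.22 in the 3 states, beside -0.03, 0 and -0.01 over all genes, and its part in the *Tug1* KD values was not tested. In bulk RNA, fewer cells of a type and less RNA per cell cannot be told apart.

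The genes whose log2(RPM + 1) was most like each factor over the 36 libraries were *Eif1b* (Pearson r 0.87) and *Lsm10* (0.87) for *Myod1*, *Wtap* (0.94) and *Cldn12* (0.9) for *Myf5*, and *Tapt1* (0.9) and *Cebpz* (0.9) for *Myf6*. For the MEF2 genes and *Six4* they were *Fam135a* (0.97) and *Spopl* (0.96) for *Mef2a*, *Mtmr1* (0.98) and *Phkb* (0.97) for *Mef2c*, *AU040320* (0.94) and *Map4* (0.92) for *Mef2d*, and *Gm37893* (0.95) and *Sos2* (0.94) for *Six4*. *Myog* had the least like neighbours, *Cacng1* (0.81) and *Gamt* (0.79), and these held in replicates 1 to 3 (0.94 and 0.9) but hardly in replicates 4 to 6 (0.33 and 0.16). The 36 libraries share 6 groups and 2 sets, which these values include.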

How the data were processed

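RNA was sequenced from 36 C2C12 myotube libraries (6 groups of 6, groups and replicate numbers from the titles). The authors trimmed reads with fastp 0.14.1, checked them with FastQC 0.11.7, aligned them with STAR 2.5 to GRCm39 and deposited whole-number counts per gene, without normalization; the counter and its strand setting are not given in the sources used here. Of the 55416 genes, 1492 have no name and hold 0.0327% of the counts. No value column was left unmapped (0).

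Here, the 13995 genes that reached 1 RPM in 12 or more libraries were scaled by TMM and tested in R 4.3.3 with edgeR 4.0.16 (two-sided quasi-likelihood test, robust, 1 fit of 36 libraries), after tests on simulated data. The study's own test was limma-voom. No 2 libraries of a group were duplicates (lowest chi-square per degree of freedom 4.258). Alternatives were DESeq2 1.42.0, limma-voom (limma 3.58.1), library size scaling, no filter, replicate or set blocks, each set alone and, chosen after seeing the data, leaving out the replicate 3 libraries of EPS 3h. RPM values are TMM-scaled, except in the filter.

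The members and lists were chosen with earlier results of these data known, and the 2 sets follow how libraries part in the data. Named genes are the 8 members, *Tug1*, per list and comparison up to 4 called genes with the largest log2FC and at least 5 RPM in either group, 2 most like genes per member, and overlapping genes. The results for 1 listed gene and its list are not reported here. Replicate numbers were taken to pair libraries where all same-numbered pairs correlated above 0.1 after centring within groups. The lowest correlations were 0.661 and 0.227 between LNA groups at EPS 0h and EPS 3h, 0.217 and 0.127 for EPS 0h and EPS 3h against Rest in control, 0.163 for EPS 0h against Rest in *Tug1* KD and 0.159 for EPS 3h against EPS 0h in *Tug1* KD, which pair, and -0.117, -0.122 and 0.0622 between LNA groups at Rest, for EPS 3h against EPS 0h in control and for EPS 3h against Rest in *Tug1* KD, which do not. GENCODE vM39 coordinates matched 13946 of the tested genes.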

Additional observations from a re-analysis of the deposited data

Results flagged for a closer look

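3 values stood far from the other 5 libraries of their group, by the gap to the nearest library relative to the range of the group (Dixon's 95% limit), among 48 groups of values examined, of which chance flags about 1 in 20. *Myog* at EPS 3h was 1132.6 RPM in 1 control library, against 827 RPM in the next highest, and 1055.0 RPM in 1 *Tug1* KD library, against 849 RPM. *Mef2d* at EPS 3h was 172 RPM in 1 *Tug1* KD library, against 186 RPM in the next lowest. All are replicate 3 libraries, and without them *Myog* at EPS 3h against Rest had a log2FC of -0.27 in control and -0.4 in *Tug1* KD, and *Mef2d* in *Tug1* KD against control at EPS 3h one of 0.41.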

How the results depend on the processing

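No direction of a called result reversed under any alternative run. Of 88 values of the 8 genes in 11 comparisons, 87 kept their side of the threshold with DESeq2, 88 with limma-voom, 83 with library size scaling and 83 without the filter on low counts. In replicates 4 to 6 alone the number of called genes was 7 in place of 4 for EPS 3h against Rest in control, 4 in place of 2 for EPS 3h against EPS 0h in control, and 3 in place of 5 for EPS 3h against Rest in *Tug1* KD; the cause was not tested beyond the smaller number of samples. Library size scaling moved the median log2FC of all genes by -0.169 and -0.166 for EPS 3h against Rest in control and *Tug1* KD.

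With a replicate block 8 values passed the threshold that did not without it, and no call was lost; with the set block 6 did, and *Myf5* in *Tug1* KD at EPS 0h and EPS 3h was not among them. Where the numbers do not pair the libraries, these were *Myf5* in *Tug1* KD at Rest (-0.5, FDR 0.0225) and at EPS 3h against Rest in *Tug1* KD (0.36, FDR 0.0495). Both were also called with the set block, at -0.49 (FDR 0.0401) and 0.39 (FDR 0.0487). The main fit had no block, so its spread included the difference between the sets. For *Mef2c* in *Tug1* KD against control at Rest, the standard error was 0.218 in the main fit and 0.123 with the set block. For *Six4* it was 0.158 and 0.157. In the comparisons that do not pair, 3 of 6 libraries correlated best with their own number between LNA groups at Rest. The number was 3 for EPS 3h against Rest in *Tug1* KD and 2 for EPS 3h against EPS 0h in control. *Myf6* at Rest in *Tug1* KD rests on 4 to 17 counts per library, which limits its precision.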
